A study of Mus musculus with 6 samples.

Results

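The genes described here encode the proteins of the mitochondrial ribosome. They were taken as every row of the expression table whose symbol starts with Mrpl or Mrps followed by a digit, which gave 80 of the 12966 listed genes. Of these, 76 are protein-coding and 4 (Mrpl23-ps1, Mrpl48-ps, Mrps36-ps1 and Mrps36-ps2) are processed pseudogenes. RefSeq holds 78 protein-coding symbols of this form, of which 76 were listed under the same symbol and 2 under an older one (Mrp63 and Ict1), so no protein-coding member was missing from the table. RNA was sequenced from brown adipose tissue of male C57BL/6J mice at 10 weeks of age. The BKO group (3 libraries) carried floxed Bscl2 alleles and a Cre recombinase driven by the Ucp1 promoter, and the Ctrl group (3 libraries) carried the floxed alleles without the Cre. The Ucp1 promoter is active in brown adipocytes, so the other cells of the tissue are not targeted, and an effect of the Cre itself cannot be told apart from that of losing Bscl2. Nothing in the labels ties the libraries to different animals. The p-values therefore cover only the variation among these 6 samples, and that variation may be technical.

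Mitochondrial ribosomes translate the few respiratory chain and ATP synthase subunits that mitochondrial DNA encodes. Their RNA comes from mitochondrial DNA, whereas their proteins are encoded in the nucleus, made in the cytosol and imported, so that a ribosome is built from both genomes. Some of the proteins have counterparts in bacterial ribosomes, and others are found in mitochondria only. Brown adipocytes are packed with mitochondria, whose respiratory chain sustains heat production through the uncoupling protein Ucp1. Bscl2 encodes seipin, an endoplasmic reticulum protein of lipid droplet formation.

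The protein-coding genes are spread over 17 chromosomes (GENCODE vM21), with the most, 10, on chromosome 11. RefSeq windows from 250 bases before to 50 bases after the gene start (GRCm38.p6) were matched for 67 of the 76 protein-coding genes, which gave 73 windows. They were searched on both strands for the motifs of factors known to act on nuclear genes of mitochondrial proteins. The NRF1 motif (GCGCA, any base, GCGC) was in 16.4% of these windows, against 10.5% of the windows of tested genes and 4.6% of all windows in the table. The ETS motif CCGGAAG was in 32.9%, against 17.9% and 8.86%, and the YY1 motif AANATGGCG in 13.7%, against 5.24% and 2.38%. At least 1 of the 3 motifs was present in 54.8% of the windows, against 29.7% of those of tested genes. The median GC content was 58.3% in the members' windows and 61.0% in those of tested genes. A match describes letters in a window and is not a binding site. The 4 promoters below were taken from the described genes with the most kinds of motif, ties being taken in the order of the symbols, to show how these motifs lie around the start. Each runs 5′ to 3′ on the gene's strand from 150 bases before to 30 bases after the start, with the motifs in capitals. None of the capital stretches overlap. Mrps18a (ETS before the start, YY1 after it) is at chr17:46110854-46111033 on the plus strand, and Mrps21 (NRF1 before, ETS after) at chr3:95871485-95871664 on the minus strand. Mrpl12 (NRF1) is at chr11:120484487-120484666 and Mrpl3 (ETS) at chr9:105053118-105053297, both on the plus strand.
Mrps18a: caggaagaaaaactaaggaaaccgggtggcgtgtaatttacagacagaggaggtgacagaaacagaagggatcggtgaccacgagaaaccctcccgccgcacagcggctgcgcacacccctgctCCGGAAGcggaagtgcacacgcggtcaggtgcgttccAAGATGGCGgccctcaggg
Mrps21: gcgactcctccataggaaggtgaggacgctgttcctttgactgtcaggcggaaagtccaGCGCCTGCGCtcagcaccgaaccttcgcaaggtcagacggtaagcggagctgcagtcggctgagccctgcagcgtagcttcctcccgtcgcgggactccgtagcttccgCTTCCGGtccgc
Mrpl12: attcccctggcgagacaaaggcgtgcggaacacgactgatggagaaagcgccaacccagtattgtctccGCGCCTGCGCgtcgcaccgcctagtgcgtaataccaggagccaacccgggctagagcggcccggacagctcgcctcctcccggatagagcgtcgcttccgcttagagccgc
Mrpl3: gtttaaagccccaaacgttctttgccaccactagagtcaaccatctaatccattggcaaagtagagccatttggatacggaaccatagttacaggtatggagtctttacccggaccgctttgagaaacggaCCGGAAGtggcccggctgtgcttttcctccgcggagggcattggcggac

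Values were taken as FPKM, fragments scaled by transcript length and by library size, and sequencing depth is unknown. Differences are given as BKO minus Ctrl on the log2(FPKM + 1) scale, a scale that shrinks differences of weakly expressed genes. The test covered the 11397 genes whose mean reached 1 FPKM. The targeted gene, Bscl2, stood at 16.5, 16.9 and 18.9 FPKM in BKO libraries and at 115.6, 104 and 106 FPKM in Ctrl libraries, and fell by 2.57 on that scale (SE 0.08; Benjamini-Hochberg adjusted p = 3.95e-05 by limma). Limma called 0 of 8 brown adipocyte markers, where it called 0.158% of all tested genes higher and 0.00877% lower. The mean log2 level of these markers was 8.45 to 8.76 in BKO and 8.41 to 8.93 in Ctrl libraries, with a median difference of -0.00. Ucp1, their defining gene, averaged 2966 ± 19.7 FPKM in BKO and 2851 ± 562 FPKM in Ctrl (SD, n = 3 each). Cidea, a lipid droplet protein of brown adipocytes, averaged 1316 ± 70.2 FPKM in BKO and 1532 ± 46.7 FPKM in Ctrl without overlap (difference -0.22, limma adjusted p = 0.431). The library BKO-3 stood apart in the table, with a sum of 2808874 FPKM against 1119228 to 1617963 in the other 5, and it holds no value between 0 and 0.486 FPKM. That gap did not touch the protein-coding members, whose means were all above 11 FPKM. Of 12 tested macrophage markers 5 were called higher in BKO libraries, where 0.158% of all tested genes were. The mean log2 level over the 13 listed macrophage genes was 3.004 to 3.19 in BKO and 1.90 to 2.38 in Ctrl libraries. Skeletal muscle markers ranged over 3.91 to 5.32 in BKO and 3.44 to 5.87 in Ctrl libraries. The part of these cell types in the results on the members was not tested. A fit with a muscle score is given with the libraries, but it cannot show the part of muscle.

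All 76 protein-coding genes were detected in every library, and their mean levels spanned 18.3-fold. The lowest mean over the 6 libraries was 11.3 FPKM for Mrpl1 and the highest was 208 FPKM for Mrpl42, a protein of the large subunit found in mitochondria only. Means of at least 100 FPKM were reached by 9 genes, and 10 lay below 20 FPKM. Mrpl42 stood at 202, 229 and 202 FPKM in BKO and at 196, 198 and 218 FPKM in Ctrl. Mrpl34, a counterpart of a bacterial large subunit protein, stood at 150, 163 and 144 FPKM in BKO and at 165, 147 and 158 FPKM in Ctrl. In both genes the groups overlapped.

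Mrps21, a small subunit protein, was the most abundant member of its subunit, at 148, 158 and 144 FPKM in BKO and 151, 139 and 138 FPKM in Ctrl, followed by Mrps16 at 135 ± 3.71 FPKM in BKO and 127 ± 5.36 FPKM in Ctrl (SD, n = 3 each), a protein whose human gene is mutated in mitochondrial disease. The next of the large subunit, Mrpl30, averaged 132 ± 9.66 FPKM in BKO and 138 ± 5.90 FPKM in Ctrl (SD, n = 3 each). The step between Mrpl34 (155 FPKM over all 6 libraries) and Mrps21 (146 FPKM) was close to the SDs within their groups (6.77 to 9.71 FPKM), so the order of such neighbours is not fixed by these data. Genes of the 49 large subunit proteins had a median level of 46.4 FPKM in BKO and 44.3 FPKM in Ctrl. Genes of the 26 small subunit proteins had a median of 38.8 FPKM in BKO and 38.6 FPKM in Ctrl. Mrps30 and Mrps18a, named for the small subunit but known to sit in the large one, were counted with the large subunit.

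**Figure D1:**
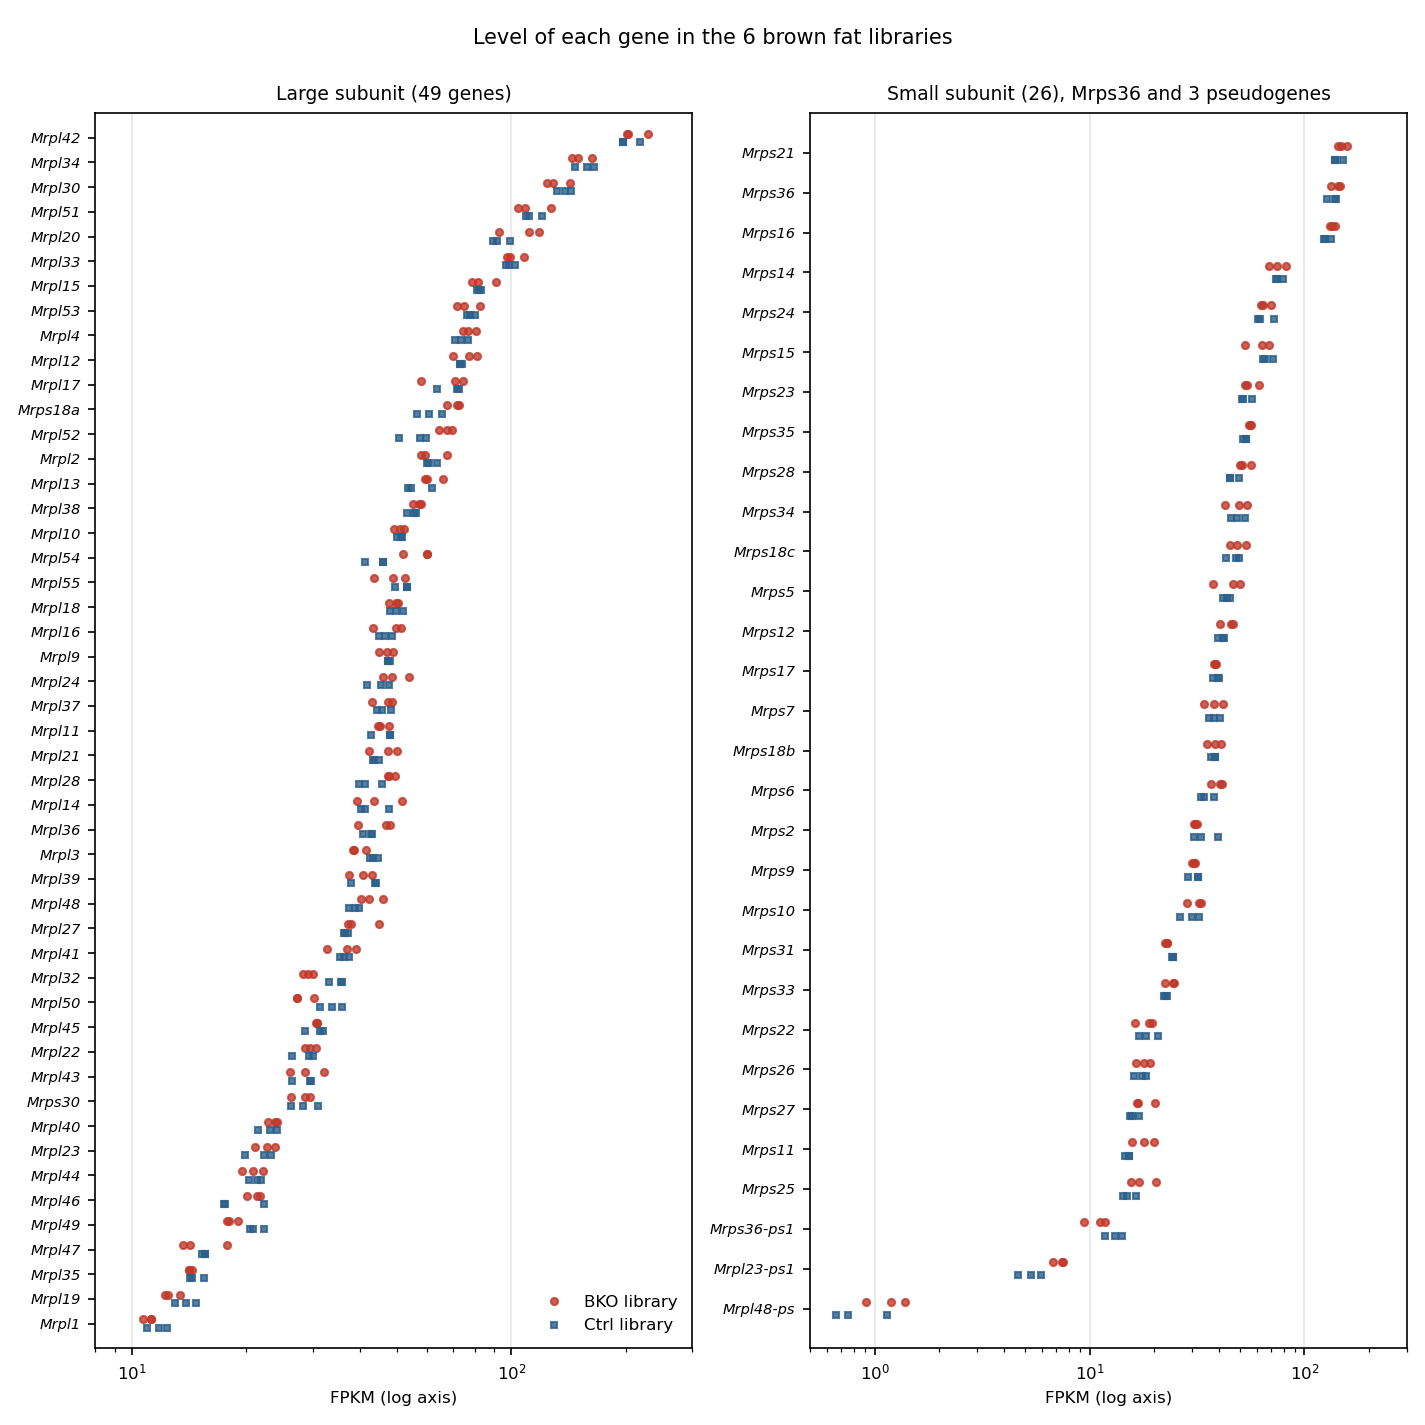
FPKM of each gene (log axis) in the 3 BKO libraries (circles, upper row of each gene) and the 3 Ctrl libraries (squares, lower row), ordered by mean level, with the large subunit on the left and the small subunit, Mrps36 and the 3 tested pseudogenes on the right. The protein-coding genes run from 11.3 FPKM for Mrpl1 to 208 FPKM for Mrpl42, and within most genes the 6 libraries lie close together.

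No transcript of the mitochondrial ribosome passed the test between BKO and Ctrl tissue. Of the 80 genes 79 passed the filter on low values, and limma called 0 higher and 0 lower with a Benjamini-Hochberg adjusted p under 0.05, where 0.158% of all tested genes were called higher and 0.00877% lower. With the unadjusted p under 0.05, 6 genes were higher, 7.59% of the 79 against 6.63% of all tested genes, and 4 were lower, 5.06% against 3.52%. The groups did not overlap in 10 higher genes, 12.7% of the 79 against 9.06% of all tested genes, and in 6 lower genes, 7.59% against 6.82%. These shares lie near those of all tested genes. The counts at an unadjusted p below 0.05 rest on single libraries, with 11 higher genes without BKO-3, 3 without BKO-2, 4 without BKO-1 and 3 without Ctrl-2, and with 2 lower genes without BKO-2, Ctrl-1 or Ctrl-3.

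The median log2 difference of the 79 genes was 0.03, beside 0.01 for all tested genes. Their quartiles were -0.02 and 0.08, against -0.08 and 0.11 for all tested genes, and the difference was above 0 in 58.2% of members and in 51.6% of all tested genes. The median was smaller than the SD between libraries of 1 group in the members' median level, 0.06, and it was -0.02 without BKO-2, 0.06 without BKO-3, and at or below 0 with upper-quartile rescaling, quantile normalization or the length trend removed (-0.0007, -0.0042 and -0.01). The large subunit genes had a median of 0.00 and the small subunit genes a median of 0.05, and both were below 0 without BKO-2 (-0.03 and -0.01). The large subunit median was also below 0 under each rescaling (-0.02 to -0.01) and without Ctrl-2 (-0.01), and the small subunit median was 0.0025 with the length trend removed. Without BKO-3 the medians were 0.05 for the large and 0.09 for the small subunit, and without Ctrl-3 the small subunit median was 0.0030. Genes with a bacterial counterpart (45) had a median of 0.03 and the genes counted as found in mitochondria only (30) a median of 0.01. Mrps18a and Mrps18b were counted among these 30 although they descend from the bacterial S18 protein, whereas Mrps18c was counted with the 45.

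These differences were measured with narrow intervals. In the main fit the 95% interval of the difference lay within 1.5-fold in either direction in all 76 protein-coding genes, which held for 85.8% of all tested genes and for 90.3% of the 3933 tested genes with means in the range of the members. The highest upper end, 0.56 for Mrpl54, lay near that bound, and without BKO-3 the estimate of Mrpl54 was 0.43. This count was not followed over the alternatives in processing. The median SD between libraries of 1 group was 0.09 on the log2 scale in the 76 genes, against 0.13 in all tested genes and 0.11 in those of the same range of means. The bound of 1.5-fold was chosen after the values were seen. A change of less than that size is not excluded for single genes, and in whole tissue fewer cells of a type and less RNA per cell cannot be told apart.

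**Figure D2:**
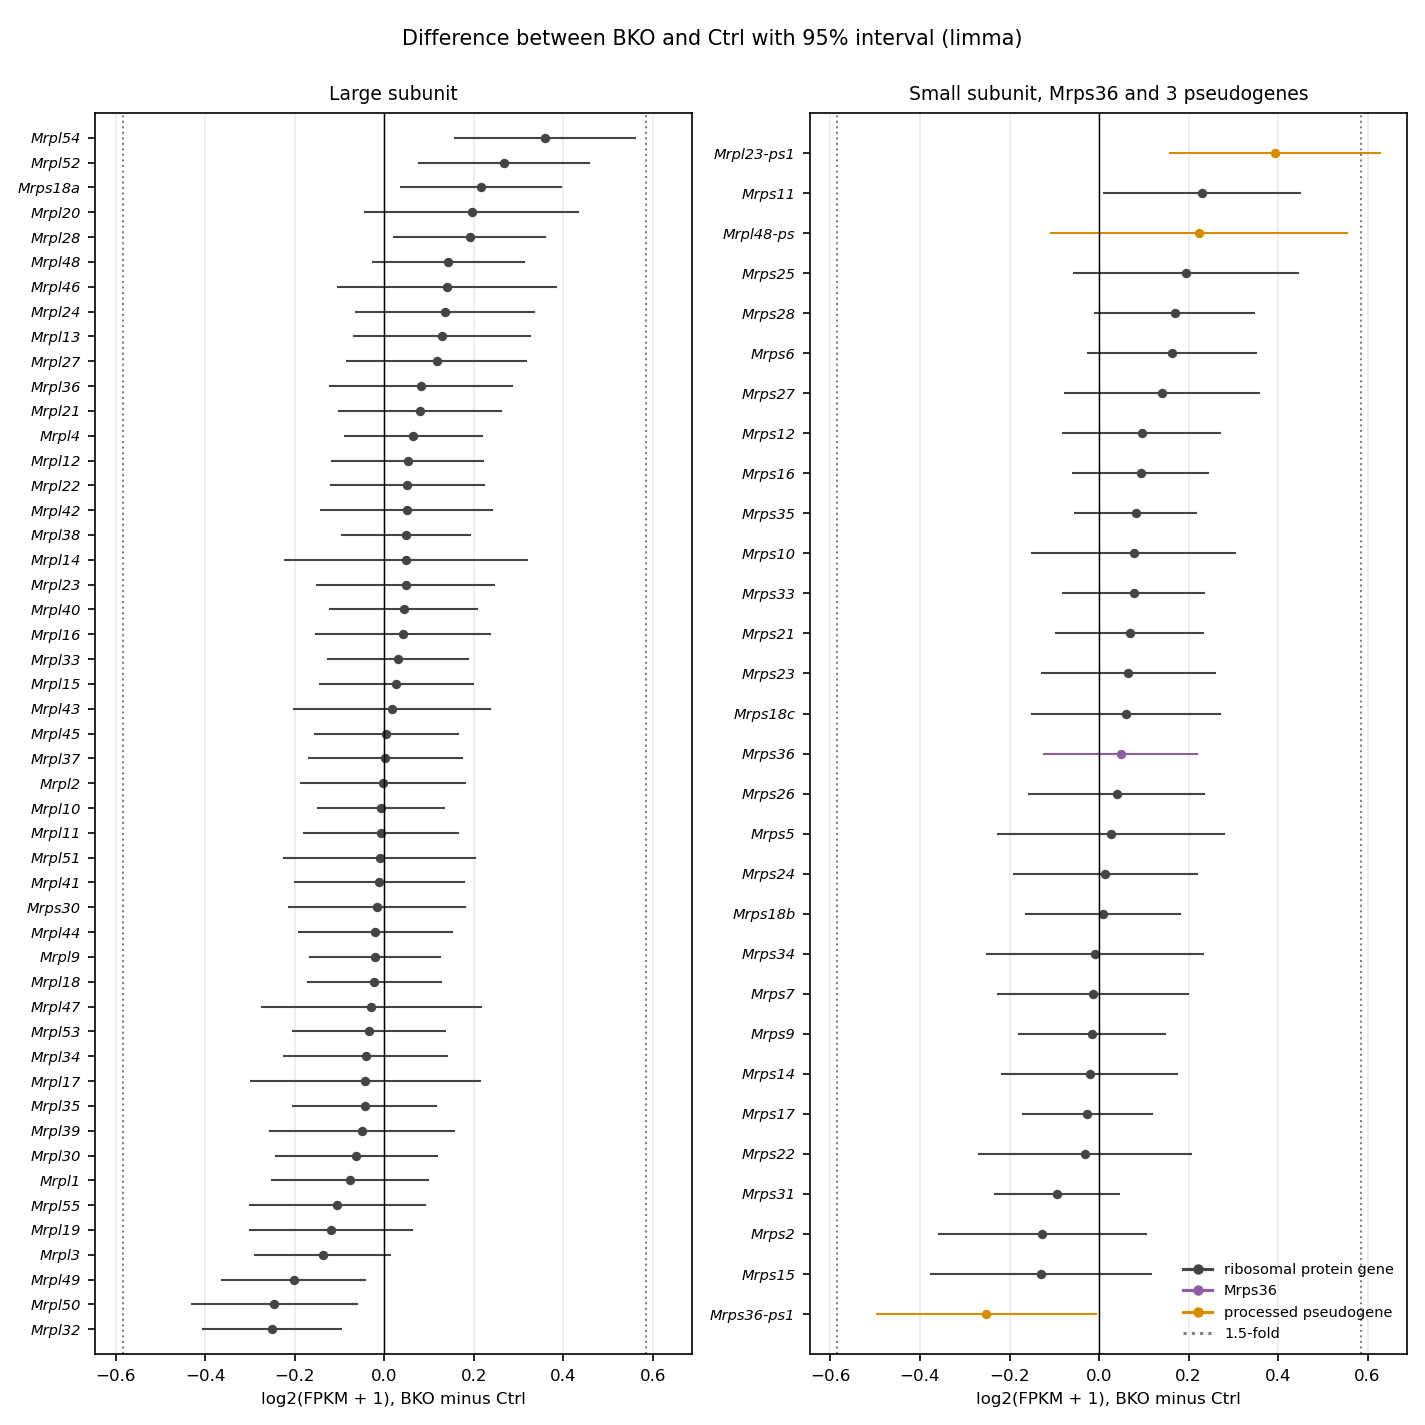
Difference in log2(FPKM + 1), BKO minus Ctrl, for the 79 tested genes, with points for the limma estimate, lines for its 95% interval and dotted lines at 1.5-fold; the large subunit is on the left. All intervals of protein-coding genes lie between the dotted lines, and their estimates run from -0.25 for Mrpl32 to 0.36 for Mrpl54.

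Among the large subunit genes the highest estimate was that of Mrpl54, which encodes a protein of the mitochondrial ribosome with no bacterial counterpart. It stood at 60.0, 60.0 and 51.6 FPKM in BKO and at 46.0, 45.8 and 41.2 FPKM in Ctrl. All 3 BKO libraries lay above all 3 Ctrl libraries, with a log2 difference of 0.36 (SE 0.09, limma with Benjamini-Hochberg adjusted p = 0.248). Mrpl52, another protein found in mitochondria only, stood at 64.5, 67.6 and 69.6 FPKM in BKO and at 57.3, 50.4 and 59.7 FPKM in Ctrl, again without overlap (difference 0.27, SE 0.08, limma adjusted p = 0.341). Mrps18a stood at 67.7, 72.7 and 72.0 FPKM in BKO and at 60.6, 56.5 and 65.7 FPKM in Ctrl (difference 0.22, SE 0.08, limma adjusted p = 0.416). Mrpl28, a counterpart of a bacterial protein that was picked after its values were seen, averaged 48.1 ± 1.06 FPKM in BKO and 42.1 ± 3.02 FPKM in Ctrl (SD, n = 3 each). None of these passed the test over all genes.

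Among protein-coding genes the lowest estimates were those of Mrpl32, Mrpl50, Mrpl49 and Mrpl3, all in the large subunit. Mrpl32 is known to need cleavage by the mitochondrial m-AAA protease before it is built into ribosomes. It stood at 29.1, 29.99 and 28.2 FPKM in BKO and at 35.8, 35.5 and 33.1 FPKM in Ctrl, without overlap, and its log2 difference was -0.25 (SE 0.07, limma adjusted p = 0.274). Mrpl50, found in mitochondria only, stood at 30.1, 27.2 and 27.2 FPKM in BKO and at 31.2, 33.6 and 35.8 FPKM in Ctrl (difference -0.25, SE 0.08, limma adjusted p = 0.371). Mrpl49, also found in mitochondria only, stood at 19.0, 17.8 and 17.96 FPKM in BKO and at 22.2, 20.8 and 20.5 FPKM in Ctrl (difference -0.20, SE 0.07, limma adjusted p = 0.397). Mrpl3, whose human gene is mutated in a mitochondrial cardiomyopathy, averaged 39.4 ± 1.76 FPKM in BKO and 43.4 ± 1.04 FPKM in Ctrl (SD, n = 3 each), and its groups did not overlap either. Mrpl32, Mrpl50, Mrpl49 and Mrpl3 did not pass the test.

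**Figure D3:**
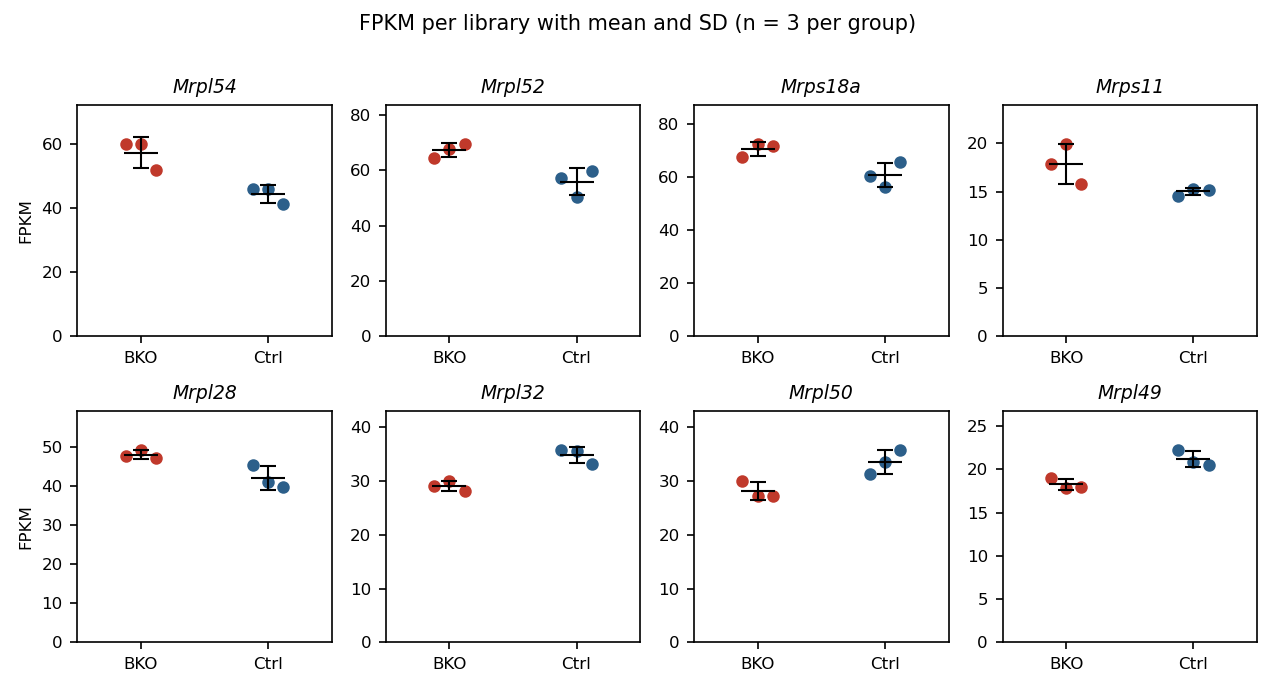
FPKM in each BKO library (red, left) and each Ctrl library (blue, right) for the 8 protein-coding genes with an unadjusted p below 0.05, with the mean and SD of each group (n = 3) in black. In all 8 the groups do not overlap, and the group means differ by less than 1.5-fold, the largest ratio being 1.29 for Mrpl54. The genes were picked by their p on these same values, which favours groups that do not overlap.

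For the proteins at functional centres of the ribosome described here the intervals of the difference all included 0, which was the common case. At an unadjusted p below 0.05 (limma), 6.58% of the 76 protein-coding genes were higher and 3.95% lower, against 6.63% and 3.52% of all tested genes. Mrpl12 forms the stalk that recruits translation factors, and in human cells it also binds the mitochondrial RNA polymerase. It stood at 77.4, 81.2 and 70.2 FPKM in BKO and at 74.1, 73.0 and 73.0 FPKM in Ctrl, with a difference of 0.05 (95% interval -0.12 to 0.22, limma). Mrpl10, which anchors the stalk, differed by -0.01 (95% interval -0.15 to 0.13), and Mrpl11, at the base of the stalk, by -0.01 (-0.18 to 0.16). Mrps12, a protein of the decoding centre, averaged 44.2 ± 3.27 FPKM in BKO and 41.2 ± 1.27 FPKM in Ctrl (SD, n = 3 each; difference 0.10, 95% interval -0.08 to 0.27).

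The bacterial S18 protein has several mitochondrial descendants, of which Mrps18b and Mrps18c sit in the small subunit. Mrps18b averaged 38.1 ± 2.802 FPKM in BKO and 37.8 ± 0.879 FPKM in Ctrl, and Mrps18c 49.1 ± 4.35 FPKM in BKO and 47.0 ± 3.38 FPKM in Ctrl (SD, n = 3 each). Their groups overlapped, whereas those of Mrps18a, the large subunit paralog, did not, and the difference between the paralogs' changes was not tested. Mrps30 and Mrpl37 encode related proteins of the large subunit. Mrps30 averaged 28.1 ± 1.73 FPKM in BKO and 28.5 ± 2.29 FPKM in Ctrl, and Mrpl37 46.1 ± 2.93 FPKM in BKO and 46.0 ± 1.93 FPKM in Ctrl.

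In the small subunit the highest estimate was that of Mrps11, a counterpart of a bacterial protein of the platform. It stood at 17.9, 19.97 and 15.7 FPKM in BKO and at 14.6, 15.3 and 15.2 FPKM in Ctrl (difference 0.23, SE 0.09, limma adjusted p = 0.472), and without BKO-2 the difference was 0.15. The lowest was that of Mrps15, which stood at 63.2, 68.6 and 52.8 FPKM in BKO and at 64.3, 71.6 and 65.2 FPKM in Ctrl (difference -0.13, SE 0.10, limma adjusted p = 0.729). The groups of Mrps15 overlapped, and its lowest value was that of BKO-3. Its difference was -0.02 without BKO-3, -0.21 without BKO-2 and -0.08 without Ctrl-2. Mrps36, once counted as a ribosomal protein and now known as a subunit of the 2-oxoglutarate dehydrogenase complex, averaged 141 ± 7.25 FPKM in BKO and 136 ± 7.22 FPKM in Ctrl (SD, n = 3 each).

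The pseudogenes held some of the largest estimates, and reads from the stretches they share with their parents could have been split between the copies. Mrpl23-ps1 is identical to the Mrpl23 transcript over 540 of its 580 bases, Mrpl48-ps matches Mrpl48 at 98.1% of 636 bases and Mrps36-ps1 matches Mrps36 at 99.3% of 306 bases. How reads were assigned between them was not tested. Mrpl23-ps1 stood at 7.47, 7.54 and 6.75 FPKM in BKO and at 5.94, 4.64 and 5.31 FPKM in Ctrl, without overlap (difference 0.39, SE 0.10, limma adjusted p = 0.270), while Mrpl23 itself averaged 22.5 ± 1.38 FPKM in BKO and 21.8 ± 1.75 FPKM (SD, n = 3 each) in Ctrl. Mrps36-ps1 stood at 11.8, 11.2 and 9.43 FPKM in BKO and at 14.1, 11.8 and 13.1 FPKM in Ctrl (difference -0.25, SE 0.10, limma adjusted p = 0.481), and without BKO-3 the difference was -0.17. Mrpl48-ps averaged 1.16 ± 0.234 FPKM in BKO and 0.854 ± 0.257 FPKM in Ctrl (SD, n = 3 each). Mrps36-ps2 failed the filter and stood at 0.322, 0.320 and 0.785 FPKM in BKO, against 0.334 FPKM in Ctrl-2 and a listing at 0 in Ctrl-1 and Ctrl-3. The 0.785 is that of BKO-3, which holds no value between 0 and 0.486 FPKM, so it may not be comparable with the other libraries. A near-identical pseudogene or copy, at 95% or more identity, was found for 17 of the 76 protein-coding genes, among them Mrpl32, Mrpl42, Mrps16, Mrps18b and Mrps21, so their values are less certain.

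BKO-2 held the highest value of the 6 libraries in 43 of the 76 protein-coding genes, whereas it did so in 22.4% of all tested genes. The median deviation of the 76 genes from their own 6-library mean was -0.00 in BKO-1, 0.10 in BKO-2 and -0.04 in BKO-3 on the log2 scale. Among the Ctrl libraries it ran from -0.03 (Ctrl-2) to 0.03 (Ctrl-1). For all tested genes the same median lay between -0.03 and 0.04. BKO-3 held the lowest value of all 6 in 24 of the 76 genes, against 15.1% of all tested genes, so the BKO group contained both the highest and the lowest library. In BKO-2 the large subunit genes deviated by 0.09 and the small subunit genes by 0.10. Skeletal muscle markers stood at 5.32 in BKO-2 and 5.87 in Ctrl-1, the 2 highest of the 6 libraries, and their part in the deviation was not tested. The median difference of the members was 0.03 both with and without the muscle score as a covariate.

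Cytosolic ribosomal proteins, the nearest comparison by function, are described by some of the same measures. Their median was not followed over the alternatives in processing. Their 79 genes, chosen by symbol without pseudogenes and kinases of like names, had a median difference of 0.11, above 0 in 94.9% of them and in 51.6% of all tested genes. Limma called 0 of them at an adjusted p below 0.05, where 0.158% of all tested genes were called higher and 0.00877% lower. At an unadjusted p below 0.05, 7 were higher, 8.86% against 6.63% of all tested genes, and 0 were lower. The groups did not overlap in 5 higher genes, 6.33% against 9.06% of all tested genes, and in 0 lower genes, against 6.82%. In 76 of the 79 genes (96.2%) the 95% interval lay within 1.5-fold in either direction, against 85.8% of all tested genes. Their median deviation was highest in BKO-2, at 0.18, as it was for the mitochondrial ribosome, and lowest in Ctrl-2, at -0.12. Whether the cytosolic and mitochondrial genes differ in their change was not tested.

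**Figure D4:**
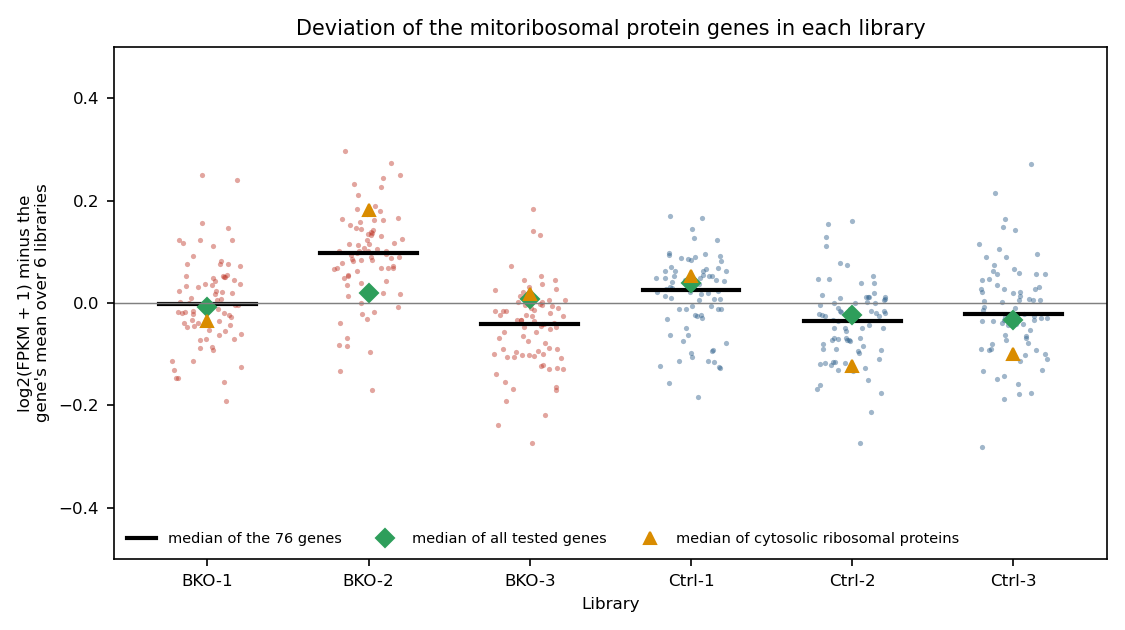
Deviation of each of the 76 protein-coding genes from its own mean over the 6 libraries, in log2(FPKM + 1), for the BKO libraries (left) and the Ctrl libraries (right), with black lines for the median of the 76 genes, diamonds for the median of all tested genes and triangles for cytosolic ribosomal proteins. The black line is highest in BKO-2, at 0.10, and lowest in BKO-3, at -0.04.

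Position in the genome was a feature that many members shared. In the GENCODE vM21 annotation, 32 of the 76 protein-coding genes (42.1%) start within 1000 bases of the start of another protein-coding gene on the opposite strand, against 17.2% of the 9514 tested protein-coding genes. Several of these neighbours also act in mitochondria. Mrps12 starts 172 bases from Sars2, the mitochondrial seryl-tRNA synthetase, Mrpl36 lies 29 bases from Ndufs6 and Mrpl47 615 bases from Ndufb5, both subunits of respiratory complex I, and Mrpl43 lies 779 bases from Twnk, the mitochondrial DNA helicase (listed as Peo1). Mrpl46 and Mrps11, of the large and the small subunit, start 412 bases apart. Mrpl32 starts 75 bases from the proteasome gene Psma2, Mrpl49 59 bases from Fau and Mrpl54 26 bases from Apba3.

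Of 26 pairs with both genes tested, 11 had differences of the same sign. No neighbour was called at an adjusted p below 0.05 (limma), where 0.158% of all tested genes were called higher and 0.00877% lower. Psma2 averaged 39.9 ± 3.51 FPKM in BKO and 38.3 ± 1.36 FPKM in Ctrl, beside Mrpl32 at 29.1 ± 0.885 FPKM in BKO and 34.8 ± 1.47 FPKM in Ctrl (SD, n = 3 each). Fau averaged 159 ± 11.7 FPKM in BKO and 142 ± 14.8 FPKM in Ctrl, with a difference of 0.17 where that of Mrpl49 was -0.20. Apba3 averaged 24.3 ± 0.831 FPKM in BKO and 22.97 ± 0.703 FPKM in Ctrl, a difference of 0.08 beside the 0.36 of Mrpl54. Mrpl46 averaged 21.1 ± 0.866 FPKM in BKO and 19.1 ± 2.74 FPKM in Ctrl, and its difference of 0.14 had the sign of that of Mrps11. These 2 genes overlap in exons on opposite strands, as 21 of the 76 do with some annotated gene over at least 100 bases. Such an overlap lies on the same strand in 7 of the 76, and 27 have either kind. Whether the counting used strand is not given in the sources used here.

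**Figure D5:**
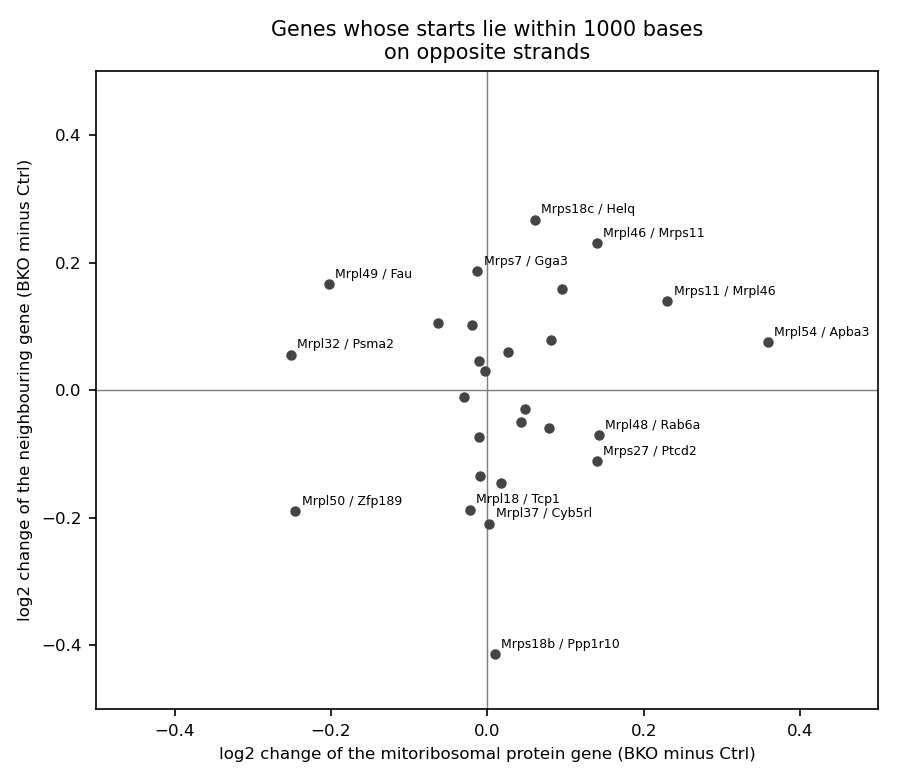
Log2 difference (BKO minus Ctrl) of each protein-coding mitoribosomal gene (horizontal axis) and of the gene that starts within 1000 bases on the opposite strand (vertical axis), 1 point per member, so that Mrpl46 and Mrps11 appear as both. The points are scattered over all 4 quadrants, and 11 of the 26 pairs have the same sign.

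Of 7 ribosomal proteins that carry other symbols, none passed the test, where 0.158% of all tested genes were called higher and 0.00877% lower. The median difference of the 7 was 0.02. This median had no stable sign, being 0.08 with BKO-3 left out, -0.04 with BKO-2 left out, and below 0 with upper-quartile rescaling, quantile normalization, the length trend removed or genes of at least 1000 nt alone (-0.02 to -0.01). Removal of the length trend covered 5 of the 7 genes, and the setting of at least 1000 nt covered 4, so these medians are over fewer genes. Aurkaip1 and Chchd1, both of the small subunit, were the most abundant of them. Aurkaip1 averaged 77.1 ± 4.17 FPKM in BKO and 75.1 ± 5.14 FPKM in Ctrl, and Chchd1 70.6 ± 2.39 FPKM in BKO and 63.5 ± 1.501 FPKM in Ctrl (SD, n = 3 each; limma adjusted p = 0.474). Of 22 tested assembly and ribosomal RNA modification factors, 0 passed by limma at an adjusted p below 0.05, against the same shares of all tested genes. Their median difference was -0.05. Mterfd1, a factor of ribosome assembly, averaged 27.6 ± 4.41 FPKM in BKO and 31.6 ± 2.38 FPKM in Ctrl, and Rbfa, which acts in maturation of the small subunit, 28.1 ± 0.447 FPKM in BKO and 26.8 ± 1.004 FPKM in Ctrl.

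Translation factors and factors of mitochondrial messenger RNA had 0 of 15 past the test by limma, where 0.158% of all tested genes were called higher and 0.00877% lower. Their median was -0.04, which was 0.01 without BKO-3, -0.07 without BKO-1, -0.0010 with a mean of at least 5 FPKM and -0.0951 with the length trend removed. The filter of 5 FPKM kept 13 of the 15. Tufm, the elongation factor that delivers transfer RNAs, averaged 71.1 ± 3.77 FPKM in BKO and 71.1 ± 0.717 FPKM in Ctrl, a difference of -0.00 (95% interval -0.15 to 0.15, limma). Gfm1, the translocation factor, averaged 58.2 ± 4.61 FPKM in BKO and 55.8 ± 0.988 FPKM in Ctrl. At an unadjusted p below 0.05, 1 of the 15 was lower (Lrpprc, which stabilises mitochondrial messenger RNAs) and 1 of the 22 assembly factors was lower (Eral1, a chaperone of the small subunit RNA), 6.67% and 4.55% against 3.52% of all tested genes. Of the 7 proteins with other symbols 1 was higher (Chchd1), 14.3% against 6.63%. The groups did not overlap in 4 lower assembly factors (18.2%) and 3 lower translation factors (20%), against 6.82% of all tested genes, and in 1 higher assembly factor (4.55%) and 0 higher translation factors, against 9.06%. Lrpprc and Eral1 were picked after their values were seen. Lrpprc averaged 30.7 ± 1.92 FPKM in BKO and 34.8 ± 1.13 FPKM in Ctrl, with a difference of -0.18 (SE 0.07, limma adjusted p = 0.468).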

How the data were processed

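The members and gene lists were chosen with earlier results of these data known. The submitters' processing notes name CASAVA 1.8, Cufflinks 2.2.1, TopHat2 2.0.12 and NCBIM37 as build. Nothing more on options, annotation or strand is given in the sources used here. What the authors deposited was taken as FPKM because the notes name Cufflinks, whose output is FPKM. The file header gives no unit, and the values are not whole numbers, so count models did not apply. Columns follow the labels' descriptions, which name BKO libraries WT and Ctrl libraries MT, and the level of Bscl2 checked this.

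The 11397 genes whose mean reached 1 FPKM were tested as log2(FPKM + 1) with limma 3.58.1 (R 4.3.3), using a mean-dependent prior variance, no covariate and Benjamini-Hochberg adjustment over all of them. The fit was tested on simulated data whose changes were larger than those of the tested members. That test therefore does not cover changes of the members' size. Named members were those past the threshold, the 6 largest estimates in each direction, the 5 highest and 3 lowest means, those under the filter, and fixed paralogs, stalk and decoding proteins. Of each partner list the 2 most abundant were named where 0 passed. Mrpl1, Mrpl23, Mrpl28, Mrpl46, Mrps16, Lrpprc, Eral1, Cidea and the neighbouring genes were chosen after their values were seen. The list of cytosolic ribosomal proteins was narrowed by symbol after pseudogenes and kinases were found in it. Subunits were assigned by known position. Transcript identity was measured with blastn 2.17.0 on GENCODE vM21, whose build differs from the authors', and promoter sequences are from RefSeq (GRCm38.p6). Alternatives changed the pseudocount, filter, scaling, gene length, variance prior, threshold, library weighting, replicate block or muscle score, or left out each library.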

Additional observations from a re-analysis of the deposited data

How the results depend on the processing

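No mitoribosomal gene was called higher or lower under any of the 21 alternatives (limma, 0 in each direction). In the main fit 0.158% of all tested genes were called higher and 0.00877% lower, and at such shares 0 calls among 79 genes are usual. The shares over all genes are not given for the alternatives. The threshold of 0.1 was tried with the other settings unchanged and also gave 0, whereas with library weights the adjusted p was 0.0872 for Mrpl54 and 0.0938 for Mrpl23-ps1. Counts at an unadjusted p below 0.05 were 6 higher and 4 lower. They became 11 higher with library weights, and ranged from 3 to 11 higher and from 2 to 4 lower with 1 library left out. The main fit did not pair the libraries by replicate number. Deviations of same-numbered libraries correlated at 0.196, -0.104 and -0.100, and not every library correlated best with its own number. With 3 libraries in each group this check cannot exclude pairing. With the replicate block 5 were higher and 4 lower, and 0 were called. The median log2 difference of the members, 0.03, was -0.02 to 0.06 over the alternatives, and its sign turned with upper-quartile rescaling (-0.0007), quantile normalization (-0.0042), removal of the length trend (-0.01) and without BKO-2 (-0.02). The median of the assembly factors, -0.05, was -0.0743 with upper-quartile rescaling, -0.0686 with quantile normalization, -0.0675 with the length trend removed, -0.0192 with library weights, and -0.0838 to -0.0264 with 1 library left out. Removal of the length trend covered 17 of the 22 assembly factors. The median of the translation factors, -0.04, was -0.0951 with the length trend removed, -0.0010 with a mean of at least 5 FPKM, -0.0181 with library weights, and -0.0683 to 0.0100 with 1 library left out. The filter of 5 FPKM kept 13 of the 15 translation factors. The cause of these shifts was not tested.

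Some named genes whose difference was near 0 changed sign. Mrpl37 was -0.0109 with median-ratio rescaling, -0.0252 with upper-quartile rescaling, -0.0234 with quantile normalization and -0.0007 with the length trend removed, and -0.0315 to 0.0543 with 1 library left out. Mrps18b was -0.0042 with median-ratio rescaling, -0.0184 with upper-quartile rescaling, -0.0161 with quantile normalization and -0.0295 with the length trend removed, and -0.0413 to 0.0622 with 1 library left out. With the length trend removed Mrpl12 was -0.0004, Mrps18c -0.0084, Mrps21 -0.0221 and Mrps36 -0.0119. With library weights Mrpl11 was 0.0476 and Mrpl34 0.0042, and with quantile normalization Mrpl42 was -0.0160. With 1 library left out Mrpl10 ranged from -0.0268 to 0.0143, Mrpl11 from -0.0635 to 0.0217, Mrpl42 from -0.0108 to 0.0987, Mrps18c from -0.0054 to 0.118 and Mrps30 from -0.07 to 0.0414. Mrpl54, Mrpl52, Mrps18a, Mrps11, Mrpl32, Mrpl50, Mrpl49 and Mrpl3 kept their sign in every alternative that tested them. The lowest adjusted p of any named gene in any alternative was 0.0872, for Mrpl54. Depth is unknown, so no limit on low counts can be given.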
